A study of Mus musculus with 44 samples.

Results

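The cytosolic ribosomal protein genes of mouse small intestinal organoids are described here across days of treatment with RANKL, alone or with CSRM617. Members were taken by symbol: Rpl or Rps followed by digits and an optional letter suffix, with Rplp0, Rplp1, Rplp2 and Rpsa added. Pseudogene symbols ending in -ps and the Rps6k kinases were left out. The rule found 84 members among the 21099 genes of the count table for RANKL alone and 71 among the 9257 genes of the table for RANKL with CSRM617. The 9230 genes present in both tables include 71 members. It used no measured value.

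The cytosolic ribosome is built from a small subunit, which decodes the mRNA, and a large subunit, which forms peptide bonds; each is ribosomal RNA with a set of proteins, most of them encoded by a single working gene with many processed pseudogene copies. Ribosomal protein mRNAs are among the most abundant in dividing cells and carry a run of pyrimidines at the 5′ end, the terminal oligopyrimidine (TOP) motif, through which growth signals such as mTORC1 control their translation. In the intestinal epithelium, stem and transit-amplifying cells in the crypt divide and make ribosomes, and absorptive cells on the villus do not divide.

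The pyrimidine run is a feature that the member rule did not use, so the start of each gene was read from RefSeq (GRCm38.p6). A run was counted from the first C within 5 bases of the annotated start, read on the gene's own strand. From that C at least 7 letters in a row had to be C or T. The stretch of C and T could begin farther upstream, and that part was not counted. Of 62 members with a RefSeq start window, 23 (37.1%) had such a run, against 2066 of 27025 genes (7.64%) over all start windows. Of the 69 mitochondrial ribosomal protein genes with a window, which belong to another ribosome, 2 had one. Among 16 translation factors and other TOP genes with a window, 6 (37.5%) had one. The windows printed here run from 10 bases before to 20 bases after the start, 5′ to 3′, with the run in capitals. They show 5 members with a run whose levels are described later, followed by 3 that changed in the RANKL arm and had no run by this rule.
Rpl13a: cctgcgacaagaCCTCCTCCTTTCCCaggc
Rps9: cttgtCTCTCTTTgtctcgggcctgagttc
Rps24: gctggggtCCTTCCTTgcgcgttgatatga
Rps18: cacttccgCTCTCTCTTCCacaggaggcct
Rpl22l1: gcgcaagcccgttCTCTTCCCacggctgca
Rps27l: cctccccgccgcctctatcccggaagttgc
Rps12: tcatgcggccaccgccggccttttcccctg
Rpl27: ctgttcctgtctgctgctcgtgctgctaat
They lie at chr7:45128726-45128755 (minus strand), chr7:3704031-3704060 (plus), chr14:24490668-24490697 (plus), chr17:33955646-33955675 (minus), chr3:28805498-28805527 (plus), chr9:66946076-66946105 (plus), chr10:23787190-23787219 (minus) and chr11:101442235-101442264 (plus), in that order. The counted run was 14 bases long in Rpl13a and 11 in Rps18, and 8 bases long in Rps9, Rps24 and Rpl22l1. Rps27l and Rps12 hold a stretch of C and T farther from the start in the printed window, which the limit of 5 bases did not count. A match is a description of letters near an annotated start, and the lack of one says only that no run met these limits.

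The organoids came from a female mouse heterozygous for an Lgr5 knock-in of GFP fused to the receptor for diphtheria toxin (Lgr5GFPDTR/+), so the reporter follows the Lgr5 promoter of stem cells in every group. All were grown first with CHIR99021, a GSK3 inhibitor, and valproic acid, a histone deacetylase inhibitor, then for a day in medium with EGF, Noggin and R-spondin. They then received 100 ng/mL RANKL, the cytokine that induces microfold (M) cells, alone for 0 to 9 days with 3 plates a day, or with 40 µM CSRM617, an inhibitor of the transcription factor ONECUT2, for 0 to 6 days with 2 plates a day. Single live cells, gated on scatter, were sorted into plates of 384 wells, and transcript 3′ ends were counted with unique molecular identifiers (UMIs). No label states whether the plates of a day were separate cultures; the spread that p-values rest on is the one between plates and may be technical.

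After keeping cells with 1000 or more UMIs there were 6558 cells on 30 RANKL plates and 1673 cells on 14 RANKL+CSRM617 plates. Plates held 26 to 282 cells with 155940 to 1640523 UMIs in the RANKL arm and 24 to 223 cells with 47976 to 835772 UMIs in the other. The epithelial marker Epcam had a UMI in 96.6% and 92.4% of cells, and none of the 6 markers of immune, endothelial, muscle or connective tissue cells present in the RANKL table exceeded 16 UMIs in all. 3 RANKL plates had fewer than 50 cells, plate 2 of day 0 (26 cells) and plates 1 and 3 of day 4 (32 and 45), and both RANKL+CSRM617 plates of day 4 did too. Those RANKL plates bear on the members directly. Plate 2 of day 0 was the highest of its day for 69 of 80 tested members (86.25%) against 32.2% of all tested genes, and plates 1 and 3 of day 4 both exceeded plate 2 for 71 members (88.75%) against 28.98% of all genes. Counts of members called against RANKL day 0 and between arms are therefore also given without them. The arms were deposited as separate tables, and the treatment, the table and the experiment cannot be told apart in a difference between them.

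Members contributed 1385705 of 32238304 UMIs (4.30%) in the RANKL arm and 170951 of 5246626 (3.26%) in the RANKL+CSRM617 arm. A few members carried much of this. Rplp1, a protein of the acidic stalk that recruits elongation factors, had 98690 UMIs in the RANKL arm, 7.12% of all member UMIs. Rps14, Rps24, Rps9 and Rps20, all of the small subunit, followed with 78773, 74046, 68281 and 66235 UMIs, and Rplp0, the stalk's base, had 53526. These 6 genes held 31.7% of the member UMIs. At the other end, 12 members had fewer than 1000 UMIs in the RANKL arm. Rps6, the target of S6 kinase, had 112 and Rps27 had 158. The paralog Rpl39l had 3. Rpl6l and Rps3a2 had 5 and 5, and both are annotated as processed pseudogenes that the symbol rule did not leave out.

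Members differ in how much of their sequence other gene models share. The last 400 bases of each member's transcript were cut into words of 31 bases and compared with every other annotated gene model (GENCODE M21). Among the 20 members with under 20% of words unique to them, the median was 1997.5 UMIs in the RANKL arm, against 11183 for the 54 members between 20% and 80% and 17927.5 for the 10 members above 80%. Spearman's rho between the unique share and the UMIs was 0.357 over the 84 members and 0.254 over the 71 of the RANKL+CSRM617 table, which share libraries and are not independent. Single members went against it: Rpl7, with 19.7% of its words unique, had 42539 UMIs in the RANKL arm, and Rpl39l, with 97.4%, had 3. Whether shared sequence lowers a member's count was not tested. Rps6 had 11.4% of its words to itself, and the others also occur in one or more of 27 other gene models. Rps20 had 100%. The 13 members missing from the RANKL+CSRM617 table had a median of 12.7% unique words, and the 71 present had 49.1%. How the authors assigned reads shared between a member and its pseudogenes is not given in the sources used here. Levels of members are therefore tested between samples only, and the ranking of members by UMIs describes the counts as deposited.

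The share of a cell's UMIs that fell in members, averaged over the cells of a plate, lay between 2.90% and 6.89% on RANKL plates. On the 3 plates of day 0 it was 4.39%, 6.27% and 4.23%, with a mean of 4.96% ± 1.14 (SD, n = 3). On day 1 it was 4.27%, 3.37% and 3.32% (3.65% ± 0.535), and on day 5 it was 2.90%, 3.12% and 4.63% (3.55% ± 0.942). Those were the 2 lowest days, and on each of them 1 plate overlapped the range of day 0. Day 4 had the highest mean, 5.54% ± 1.53, but its plates were 6.89%, 3.88% and 5.85%, and the 2 high ones are the plates with fewer than 50 cells. On days 6 and 9 the share was 5.02%, 5.03% and 4.80%, then 5.02%, 5.82% and 5.21%. The last day lay within the range of day 0.

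**Figure D1:**
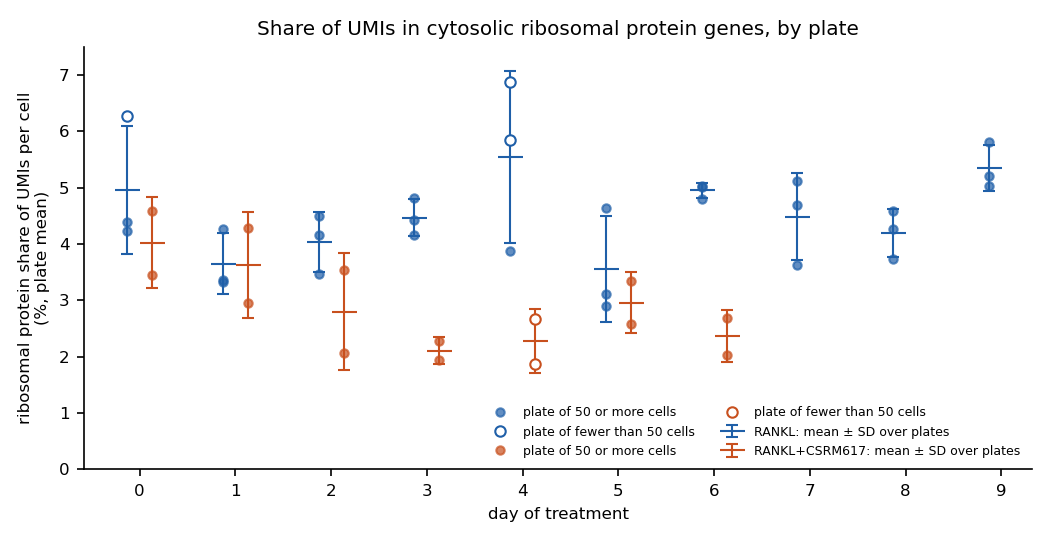
Share of UMIs in cytosolic ribosomal protein genes per cell (%, y axis), averaged over the cells of each plate (points), by day of treatment (x axis). Bars are the mean ± SD over plates, open points mark plates of fewer than 50 cells, and RANKL+CSRM617 plates (orange) lie at 2.69% or below on days 3, 4 and 6.

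Across all RANKL days the plate shares did not pass a permutation test of differences between days (p = 0.062, 100000 resamples). Without the 3 small plates the same permutation test gave p = 0.0233, and without the most abundant gene model, which took 2.60% to 24.1% of a plate's UMIs, it gave p = 0.0263. For single days against day 0 the exact permutation test (two-sided) cannot go below p = 0.1, so it cannot call a day. Its lowest p was 0.2, on day 1. Over the 30 RANKL plates the member share was lower where that gene model was higher (Pearson r = -0.463, permutation p adjusted over 4 relations = 0.0416; Spearman rho = -0.433, adjusted p = 0.0706). Leaving out the 2 plates farthest from the median brought r to -0.326. The model is part of the total that the share is taken of. In the RANKL arm, median UMIs per cell had no such relation to the share (r = -0.0185, adjusted permutation p = 0.922).

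In the RANKL+CSRM617 arm the share was 4.59% and 3.45% on day 0, 4.29% and 2.96% on day 1, and 2.06% and 3.53% on day 2. It was 1.93% and 2.27% on day 3, 1.87% and 2.67% on day 4, 3.34% and 2.58% on day 5, and 2.03% and 2.69% on day 6. From day 3 on, both plates of every day lay below both plates of day 0. With 2 plates against 2 the exact test cannot go below 0.333, which each of those days reached, and the test over all days gave p = 0.183. Over days 0 to 6 and the genes in both tables, the RANKL+CSRM617 share was 1.68 percentage points lower than the RANKL share of the same day (mean difference -1.68, permutation of plates within days, p = 4e-05). The difference was -1.06 points on day 0 and -0.108 on day 1, when plates of the arms overlapped. It was -2.47, -3.40 and -2.74 points on days 3, 4 and 6, when they did not overlap, and the smallest p of these daily tests is 0.1. Without the small RANKL plates, which left 1 RANKL plate on day 4, the day 4 difference was -1.70 points and that of day 0 -0.383. Over all days, median UMIs per cell ran from 2968 to 6960 on RANKL plates and from 1800 to 3685 on RANKL+CSRM617 plates. Over the 14 RANKL+CSRM617 plates they had Pearson r = 0.425 with the share (permutation p adjusted over 4 relations = 0.264). Whether depth has a part in the difference between arms was not tested. Plates also carry a code from L1 to L5 in their descriptions. Within L1 the share was 4.59%, 4.29%, 3.53% and 2.27% on days 0, 1, 2 and 3, and within L3 it was 3.45%, 2.96% and 2.03% on days 0, 1 and 6. Within L4 it was 2.06% and 1.93% on days 2 and 3. It rose within L2, from 1.87% on day 4 to 2.58% on day 5. Within L5 it was 2.67%, 3.34% and 2.69% on days 4, 5 and 6.

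Cell types could move these shares, so cells were clustered on genes other than the members and named by marker genes. Against the other cells of the same plates, Enterocyte-like and Enteroendocrine-like cells of the RANKL arm had the largest negative differences in member share. In the RANKL arm, Enterocyte-like cells had a share of 2.74% against 4.58% in the other cells of the same 18 plates, a difference of -1.84 points (SD 0.732), and were lower in every plate (permutation p adjusted over 7 classes = 9.33e-05). Enteroendocrine-like cells were at 2.47% against 4.82%, lower in 8 of 8 plates (-2.35 points, SD 0.512, adjusted exact p = 0.00911). Those plates were all of days 6 to 9, so the 2 classes were mostly compared on different plates. The Enteroendocrine-like cluster was led by Insm1, Scn3a and Chgb. It was named by Chgb, Reg4 and Neurog3, without the listed hormone genes. Stem-like cells were at 4.99% against 4.31% and higher in 17 of 17 plates (0.681 points, SD 0.233, adjusted permutation p = 9.33e-05). Cycling-like cells were higher in 20 of 27 plates by 0.324 points (SD 0.397, adjusted permutation p = 0.000385). Goblet or Paneth-like cells, the mucus and antimicrobial cells of the crypt, were lower in 15 of 17 plates by 0.458 points (difference -0.458, SD 0.335, adjusted permutation p = 9.33e-05). For Tuft-like cells 4 plates gave -0.312 points with an SD of 0.771, within the spread.

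M cell-like cells, marked by Spib and Ccl20, had a share of 4.68% against 3.70% in the other cells and were higher in 9 of 9 plates, all of days 1 to 3 (0.973 points, SD 0.402, exact permutation p = 0.00391, the smallest possible; adjusted 0.00547). Their share was 4.95%, 3.74% and 3.57% on the plates of day 1 and 5.05%, 5.64% and 5.39% on those of day 3, with no overlap. The other cells on these plates include the low Enterocyte-like ones. Cycling-like cells of the same day 1 plates had 4.95%, 3.79% and 3.61%, beside the M cell-like values. On the day 3 plates Cycling-like cells had 4.45%, 4.90% and 4.92%, below the M cell-like values. In the RANKL+CSRM617 arm the 2 plates with enough M cell-like cells, both of day 2, had 1.99% and 3.22%, and the difference from the other cells was -0.210 points (SD 0.188). There the Enterocyte-like cells were lower in 7 of 7 plates by 0.935 points (difference -0.935, SD 0.496, adjusted exact p = 0.0391) and the Cycling-like cells higher in 9 of 11 (0.537, SD 0.565, adjusted permutation p = 0.0323). Stem-like cells were higher by 0.901 points in 4 of 4 plates (SD 0.0759), where the exact test cannot go below 0.125. Whether the difference between cells and the rest itself differs between arms was not tested.

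**Figure D2:**
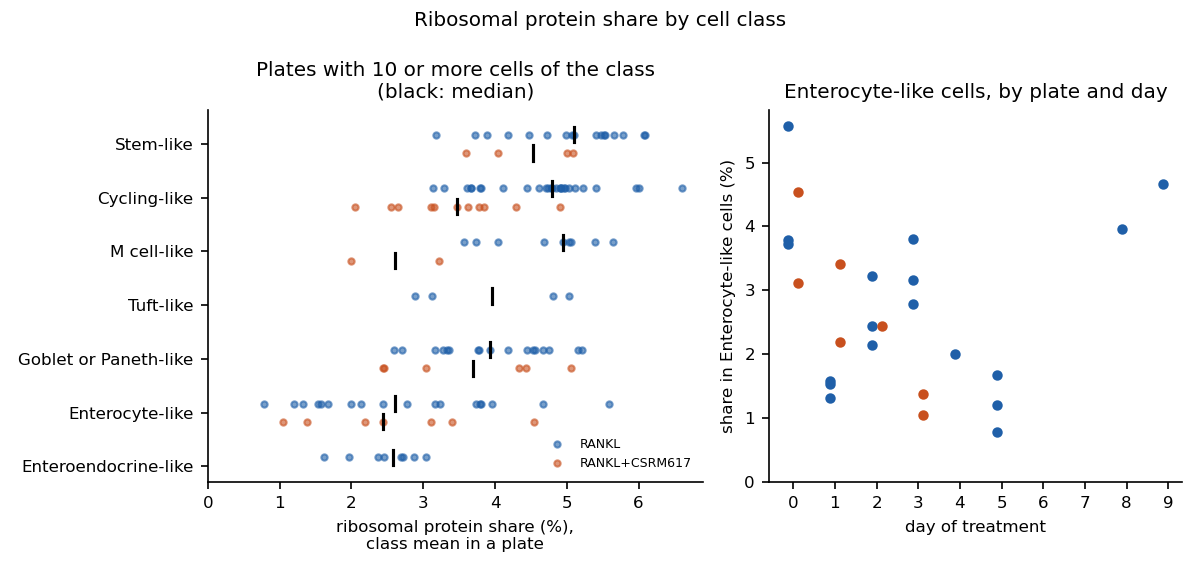
Member share (%) by cell class. Left: each point is the mean of the cells of a class in 1 plate with 10 or more such cells, for both arms, with the median as a black line; Enterocyte-like and Enteroendocrine-like medians are the lowest of the RANKL arm. Right: the Enterocyte-like values by day of treatment, which in the RANKL arm run from 3.73% to 5.58% on day 0 and from 1.32% to 1.57% on day 1.

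The Enterocyte-like share took different values by day, which was not tested. On the RANKL plates it was 3.79%, 5.58% and 3.73% on day 0, 1.57%, 1.32% and 1.54% on day 1, and 2.14%, 3.23% and 2.44% on day 2. It was 2.78%, 3.81% and 3.16% on day 3 and 0.782%, 1.20% and 1.67% on day 5. All plates of days 1, 2 and 5 lay below all plates of day 0. On the other days not all plates had enough cells of the class. Plate 2 of day 4 had 1.99%. The share was 3.96% on plate 1 of day 8 and 4.66% on plate 2 of day 9. The values of days 8 and 9 lay within the range of day 0. Different clusters held the class on days 0 and 1. On day 0, 260 of its 262 cells belonged to a cluster led by Fabp1, a fatty acid binding protein, and on day 1 it was 62 cells of a cluster led by Reg3b, Apoa4 and Apoa1 and 29 of the Fabp1 cluster. In the RANKL+CSRM617 arm the class went from 4.54% and 3.11% on day 0 to 3.40% and 2.19% on day 1 and 1.04% and 1.38% on day 3, again in different clusters, led by Fabp1 on day 0, by Anxa10 on day 1 and by Dnase1 and Cyp1a1 on day 3. Unnamed clusters led by the gene model Gm10800 had shares of 2.47% over 85 RANKL cells and 0.424% over 53 RANKL+CSRM617 cells.

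In some classes nearly all members differed from the other cells in 1 direction, and in others members were mixed. In Enterocyte-like cells of the RANKL arm all 77 members with 200 or more UMIs in the comparison were lower than in the other cells, with a median log2 difference of -0.83, and 42 of them were lower in all 18 plates. Rpl27 was the lowest, at -1.91, followed by Rpl12 and Rps12, and Rps27l was the least changed, at -0.16. In Enteroendocrine-like cells all 73 members were lower (median -0.97). Rps12 stood lowest there at -2.69, and Rpl26, which binds p53 mRNA, stood at -0.23. M cell-like cells had 73 of 76 members higher (median 0.31, 33 of them in all 9 plates), with Rpl15 at 0.57 the highest and Rpl27 at -0.06 the lowest. Stem-like cells had 73 of 76 higher (median 0.21) and Cycling-like cells 75 of 78 (median 0.12). Rpl27 was thus at the low end in Enterocyte-like and M cell-like cells and, at 0.61, the highest member in Cycling-like cells. Its values rest on few counts, 504 UMIs in 7.03% of RANKL cells. Rps12 and Rpl12 are also low, with 1253 and 1938 UMIs. In RANKL+CSRM617 Enterocyte-like cells 56 of 57 members were lower (median -0.47), and in its Stem-like cells all 52 were higher (median 0.30). Goblet or Paneth-like cells were mixed, with 65 of 77 members lower in the RANKL arm and 33 of 58 with CSRM617, and so were the Tuft-like cells (47 of 70 lower). The M cell-like cells of the RANKL+CSRM617 arm had 26 of 37 members lower.

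Members were then tested one by one on counts summed per plate, with all days of an arm in 1 fit (edgeR quasi-likelihood test, Benjamini-Hochberg adjustment over all tested genes). A gene was called at an adjusted p under 0.05. A low-count filter left 80 members in the RANKL arm, where Rps6, Rpl39l, Rpl6l and Rps3a2 were not tested. It left 66 in the RANKL+CSRM617 arm, where Rpl5, Rpl35, Rps12, Rps16 and Rps23 were not. In bulk sums fewer cells of a type and less RNA per cell cannot be told apart. Levels are given as CPM, counts scaled to the size of the plate's library.

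On day 1 of RANKL, 20 of 80 members fell from day 0 and none rose, where 12.3% of the 10000 tested genes fell and 11.5% rose. The median member changed by -0.50 (log2) and 76 were below 0, against a median of 0.00 over all genes. Without the 3 small plates 10 of 81 members fell, near the share of all genes that fell (12.1%). The median member was then at -0.33 and 71 were below 0. These 10 are all among the 20, and they include Rps15, Rpl5, Rps12, Rpl23, Rpl32, Rps26, Rpl39, Rpl4 and Rps14. Leaving out plate 2 of day 0 alone left 7 members, and plate 2 or 3 of day 1 left 6 or 5. The small subunit had 11 of 31 members called and the large subunit, stalk included, 9 of 49.

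Rpl39, a small protein lining the exit tunnel of the large subunit, had 1032, 1688 and 1219.8 CPM on the plates of day 0 and 836, 832 and 821 on day 1. All day 1 plates were lower (log2 fold change -0.64, SE 0.161, edgeR adjusted p = 0.00311), and by day 9, at 1405, 1603 and 1349, the plates overlapped day 0 again. Rps15, of the small subunit head, went from 483, 1121 and 673 to 426, 327 and 267 CPM, also without overlap (log2 -1.08, SE 0.301, edgeR adjusted p = 0.00736). Rpl5, which brings the 5S RNA into the ribosome and can bind Mdm2, had 57.5, 592 and 56.7 CPM on day 0 and 35.9, 27.3 and 40.6 on day 1. It was called (log2 -2.03, SE 0.508, edgeR adjusted p = 0.0028), but its day 0 mean rests on the plate of 26 cells, far above the other plates. Rpl13 had the same pattern, with 39.3, 338 and 44.4 CPM on day 0 and 29.1, 24.3 and 24.2 on day 1 (log2 -1.66, SE 0.579, edgeR adjusted p = 0.0338), and was not called without the small plates.

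Of the 6 most abundant members, Rps14 and Rps24 were called on day 1 and the others were not. Rps14 had 2602, 3274 and 2485 CPM on day 0 and 2327, 1909 and 1695 on day 1 (log2 -0.49, SE 0.125, edgeR adjusted p = 0.00353), and 2893, 3320.2 and 2959 on day 9. Rps24, mutated like several of these genes in Diamond-Blackfan anaemia, had 2009.5, 3051 and 3036 on day 0 and 2179, 1846 and 1682 on day 1, with overlap (log2 -0.50, edgeR adjusted p = 0.0298). Rps24 was not called on day 1 without the small plates. Rplp1 had 3514, 3630.4 and 3160.4 on day 0 and 3496, 2984 and 2998 on day 1 (log2 -0.12, edgeR adjusted p = 0.632). Rplp0 had 1968, 1822 and 1302 on day 0 and 1713, 1587 and 1489 on day 1, and the log2 change was -0.08. Rps9 and Rps20 were at -0.29 and -0.45 (edgeR adjusted p = 0.0971 and 0.152). The stalk proteins Rplp0, Rplp1 and Rplp2 and the laminin receptor protein Rpsa were not called on day 1.

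**Figure D3:**
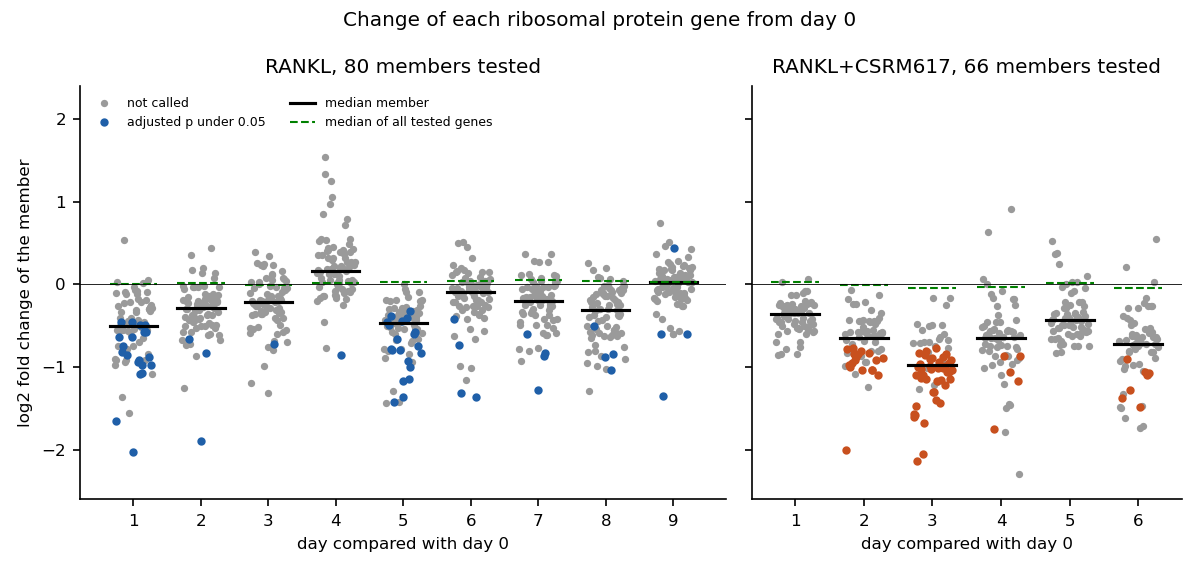
Log2 fold change of each tested member from day 0 (y axis) on each later day (x axis), for RANKL (left, 80 members) and RANKL+CSRM617 (right, 66 members). Coloured points passed an edgeR adjusted p of 0.05, black lines are the median member and dashed green lines the median of all tested genes; the median member lies at -0.50 on RANKL day 1, 0.02 on RANKL day 9 and -0.98 on RANKL+CSRM617 day 3.

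On day 2, 3 members fell and none rose (11.2% of all genes fell and 10.3% rose). On day 3, 1 fell and none rose (10.2% of all genes fell and 10.2% rose), and on day 4, 1 fell and none rose (11.4% of all genes fell and 10.1% rose). On day 5, 20 of 80 members fell and none rose (17.2% of genes fell and 17.2% rose), all 80 were below 0 and the median was -0.47. Without the small plates 6 of 81 fell, with a median of -0.32, where 16.9% of all genes fell. They were Rps12, Rpl41, Rpl22l1, Rpl23, Rpl13a and Rps24. On day 7, 4 members fell and none rose (16.5% of genes fell and 16.5% rose), and on day 8 it was again 4 and none (17.9% and 17.3%). Without the small plates 2 members fell on each of these days, Rps12 and Rpl23 on day 7 and Rps12 and Rpl13a on day 8, 2 on day 2, none on day 3 and 1 on day 4. In all, 29 of 80 members fell on at least 1 of 9 days, 1 rose on a day, and 50 were never called. All days share the plates of day 0, so these are not independent counts. Against day 3, day 4 had 6 members higher and none lower (4.33% of all genes were higher and 5.02% lower), Rpl36, Rpl24, Rpl13, Rpl17, Rps19 and Rps26. Rps19 had 188, 203 and 216 CPM on day 3 and 495, 200.2 and 520.2 on day 4, where the high plates are again the 2 with fewer than 50 cells. Without the small plates none of the 6 was called and the median member went from 0.35 to -0.13.

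Few members were called against day 0 on days 6 and 9 of RANKL. On day 6, 4 of 80 fell and none rose (19.4% of all genes fell and 18.9% rose), and on day 9 3 fell and 1 rose (18.4% of all genes fell and 18% rose). These shares are well under the background. Without the small plates 4 fell and Rpl27a rose on day 6. None of the 3 members that fell on day 9 was called on day 1. The median member was at -0.09 on day 6, which turned to 0.06 with library totals in place of TMM scaling and to 0.10 without the small plates. It was at 0.02 on day 9. Library totals moved the median of all genes by 0.17 on both days.

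Rps12, a small subunit protein that in flies takes part in cell competition, had 63.9, 134 and 55.7 CPM on day 0 and 28.9, 25.7 and 25.9 on day 6 (log2 -1.37, SE 0.262, edgeR adjusted p = 7.14e-05). It was called lower on every day from 1 to 8. On day 9, at 45.6, 51.6 and 43.8 CPM, it was not. Rpl27, a large subunit protein, had 21.9, 25.5 and 11.3 CPM on day 0, 25.4, 23.5 and 27.8 on day 1, 7.01, 4.11 and 9.5 on day 6 and 7.35, 6.2 and 6.97 on day 9 (day 9: log2 -1.35, SE 0.42, edgeR adjusted p = 0.0106). All plates of days 6 and 9 were below all plates of day 0. These are low counts, 504 UMIs over all plates.

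Of the 3 members lower on day 9, Rpl22l1 and Rps27l are paralogs of other members. Rpl22l1, a paralog of Rpl22, had 566, 471 and 379.8 CPM on day 0, 356, 214 and 279.9 on day 6 and 391, 299 and 246 on day 9, where 1 plate overlapped day 0 (log2 -0.74, edgeR adjusted p = 0.00434 on day 6; -0.61, 0.0197 on day 9). Rpl22 itself had 877, 1076 and 925 CPM on day 0 and 772, 649.5 and 649.6 on day 1 (log2 -0.46, SE 0.144, edgeR adjusted p = 0.0171) and was not called on day 6 or 9. Without the small plates Rpl22 was not called on day 1 either. Rps27l, a p53-induced paralog of Rps27, had 398, 439 and 556.5 on day 0 and 289.6, 296 and 341 on day 9, with no overlap (log2 -0.60, SE 0.148, edgeR adjusted p = 0.00164). Rpl7 was the member that rose on day 9, with 1398, 1178 and 911 CPM on day 0 and 1483, 1859.9 and 1391 on day 9 (log2 0.44, SE 0.157, edgeR adjusted p = 0.0251), though 1 plate of day 9 lay just under the highest of day 0. Without the small plates 6 of 81 members rose on day 9, Rpl39, Rpl27a, Rpl7, Rpl5, Rps7 and Rpl21. The 3 lower ones, Rpl27, Rps27l and Rpl22l1, were called as before. Of the 10577 genes tested in that fit 1819 rose and 18.5% fell.

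When counts were scaled to the members' own sum, which asks which members moved against the other members, few were called in the RANKL arm. This scale holds the member sum fixed and shifts all other genes by the inverse of its change. The share of all genes called is therefore given but is no like background for the members. On day 1 Rps27l rose (0.50) and Rpl5, Rpl13 and Rps15 fell (4 of 80 called, 27.9% of all genes). On day 6 Rps12, Rpl27, Rpl5 and Rpl22l1 fell (29.4% of all genes were called), and on day 9 Rpl27, Rps12, Rpl22l1, Rps27l and Rpl36al (27.5%). Rpl36al, a paralog of Rpl36a, had 156, 389 and 179 CPM on day 0 and 169, 137 and 127 on day 9. In the RANKL+CSRM617 arm no member was called against the others on any of the 6 days (2.62% to 33% of all genes were called on that scale).

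The other members of prior interest did not pass the test on RANKL day 1. Rpl11, the partner of Rpl5, had 63.9, 318 and 141 CPM on RANKL day 0 and 102, 60.7 and 49.1 on day 1 (log2 -0.92, edgeR adjusted p = 0.0733). Rpsa had 81.3, 618 and 296 on day 0 and 178, 125 and 79.1 on day 1, and Rps27a, which is made as a fusion with ubiquitin, 133, 236 and 63.3, then 105, 69.1 and 65.5. In each of these the plate of 26 cells was the highest of day 0. Rps4x, Rpl10, Rpl36a and Rpl7l1 were not called on day 1, 3, 6 or 9 of RANKL.

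With CSRM617 most members fell on day 3, and none was called on days 1 and 5. On day 3, 41 of 66 members fell from day 0 and none rose, where 7.94% of the 6499 tested genes fell and 10% rose. All 66 were below 0 and the median was -0.98, against -0.05 over all genes. The fall took in 16 of 26 small subunit members and 25 of 40 of the large subunit with the stalk, with medians of -0.95 and -0.99. Leaving out 1 plate of day 0 or day 3 at a time left 12 to 27 members. On day 1 no member was called (2.29% of genes fell and 2.08% rose; 10 members at an unadjusted p under 0.05; DESeq2 called 0), with a median of -0.36. On day 2, 18 fell and none rose (4.31% of genes fell and 5.46% rose). On day 4, with its 2 small plates, 5 fell and none rose (2.42% and 2.15% of genes). On day 5 none was called (3.72% of genes fell and 3.97% rose; 21 members at an unadjusted p under 0.05), and on day 6, 7 fell and none rose (2.95% and 4.57% of genes). Over the 6 days 41 members fell on at least 1 day, none rose and 54 were below 0 on every day.

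Rpl3, which lies at the peptidyl transferase centre, had 342 and 334 CPM on day 0, 108 and 104 on day 3 and 123 and 155 on day 6 (day 3: log2 -1.67, SE 0.301, edgeR adjusted p = 0.00032). Rpl13a, known for a role outside the ribosome in silencing inflammatory mRNAs, had 245 and 209 on day 0, 90.9 and 74.1 on day 3 and 98.2 and 77.4 on day 6 (log2 -1.47, SE 0.257, edgeR adjusted p = 0.000241 on day 3; -1.37, SE 0.315, 0.0065 on day 6). In both genes all later plates lay below both day 0 plates.

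Rpl28 went from 72.9 and 58.6 CPM on day 0 to 13.5 and 17.8 on day 3 (log2 -2.06, SE 0.477, edgeR adjusted p = 0.00372), and 40.9 and 34.4 on day 6. Rpl17 had the largest fall, from 50.2 and 33.1 to 6.73 and 11.9 (log2 -2.14, SE 0.581, edgeR adjusted p = 0.0119). Rpl10a, Rpl12 and Rpl11 fell by 1.60, 1.58 and 1.57 on the log2 scale (edgeR adjusted p = 0.0162, 0.0459 and 0.028). These are members of low counts. Among the abundant ones, Rps9, a small subunit protein of the mRNA path, had 2538 and 2429 CPM on day 0, 1319.5 and 1313 on day 3 and 1530.1 and 1616 on day 6 (day 3: log2 -0.92, SE 0.225, edgeR adjusted p = 0.00588). Rplp1 had 2179 and 2309.7 on day 0 and 1286 and 1339 on day 3 (log2 -0.77, SE 0.241, edgeR adjusted p = 0.0273).

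All 3 stalk genes had lower values on day 3, and Rplp1 and Rplp2 passed the test. Rplp2 fell on day 3, from 173 and 178 CPM to 60.6 and 71.1 (log2 -1.41, edgeR adjusted p = 0.00786), and Rplp0, with 1187 and 1403 on day 0 and 659.8 and 883 on day 3, did not pass (log2 -0.74, edgeR adjusted p = 0.135). Rpsa fell from 321 and 364 to 182 and 151 (log2 -1.04, edgeR adjusted p = 0.00267). On day 6 the called members were Rpl8, Rpl13a, Rpl3, Rps18, Rps21, Rps15 and Rpl23. Rpl8, of the large subunit, had 426 and 545 CPM on day 0 and 155 and 189 on day 6 (log2 -1.49, SE 0.394, edgeR adjusted p = 0.0188), and Rps18 had 488 and 652, then 229 and 301 (log2 -1.10, SE 0.273, edgeR adjusted p = 0.0121). With the plate code as a term in the fit 1 member was called on day 6, and leaving out 1 plate of day 0 or 6 left 0 to 4.

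Of the 66 members tested in both arms, 17 fell on RANKL day 1 and 41 on RANKL+CSRM617 day 3, and 12 fell in both, 70.6% of the former and 29.3% of the latter. Of all 66, 62.1% fell on RANKL+CSRM617 day 3, so the share among the 17 is near that of the members as a whole. Among them are Rpl4, Rpl22, Rpl23, Rpl32, Rpl39, Rps15, Rps18, Rps21, Rps26 and Rps29.

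The arms already differed on day 0. Over the 8766 genes tested in a joint fit of days 0 to 6, 16 of 71 members were lower in the RANKL+CSRM617 plates of day 0 and none higher (7.08% of genes were lower and 2.75% higher), although the median member differed by only -0.13. Without the 3 small RANKL plates it was 13 lower and 1 higher, Rpl27a (7.26% of genes were lower and 237 of 8958 higher). Rps7, of the small subunit, had 207, 452 and 121 CPM on the RANKL plates of day 0 and 22.9 and 41.1 on the RANKL+CSRM617 plates (log2 -2.85, SE 0.424, edgeR adjusted p = 5.17e-06), and 192, 142 and 189 against 35 and 54 on day 6. Rps3 had 1523, 1887 and 1069 against 467 and 409 on day 0 (log2 -1.75, SE 0.265, edgeR adjusted p = 7.67e-06). These offsets were present before either treatment had run for a day, and no plate of one arm overlapped the other.

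Members lower with CSRM617 numbered 15 on day 1 (7.51% of genes were lower), 23 on day 2 (7.11%), 36 on day 3 (6.87%), 26 on day 4 (3.24%), 11 on day 5 (6.51%) and 24 on day 6 (8.07%). Without the small RANKL plates 8.13%, 7.68%, 7.21%, 2.44%, 7.11% and 8.36% of genes were lower on days 1 to 6. Members lower there numbered 16, 26, 40, 12, 12 and 31, and 5 members were higher on day 1, as were 385 of all 8958 genes. From day 2 on none was higher, where 5.33%, 6.95%, 1.04%, 4.47% and 9.55% of genes were higher on days 2, 3, 4, 5 and 6. On all 7 days, day 0 included, 9 members were lower, among them Rpl26, Rpl35, Rpl7a, Rps14, Rps3, Rps3a1 and Rps7, and 27 members were neither lower nor higher on any day. Rps24 (log2 0.62, edgeR adjusted p = 0.0271) and Rpl31 (log2 1.23, edgeR adjusted p = 0.0216) were higher on day 1 (3.78% of genes were). Rpl31 had 244, 173 and 114 CPM against 459 and 371 on that day, with no overlap, and 163, 511 and 359 against 526 and 505 on day 0, where 1 RANKL plate came between the others.

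**Figure D4:**
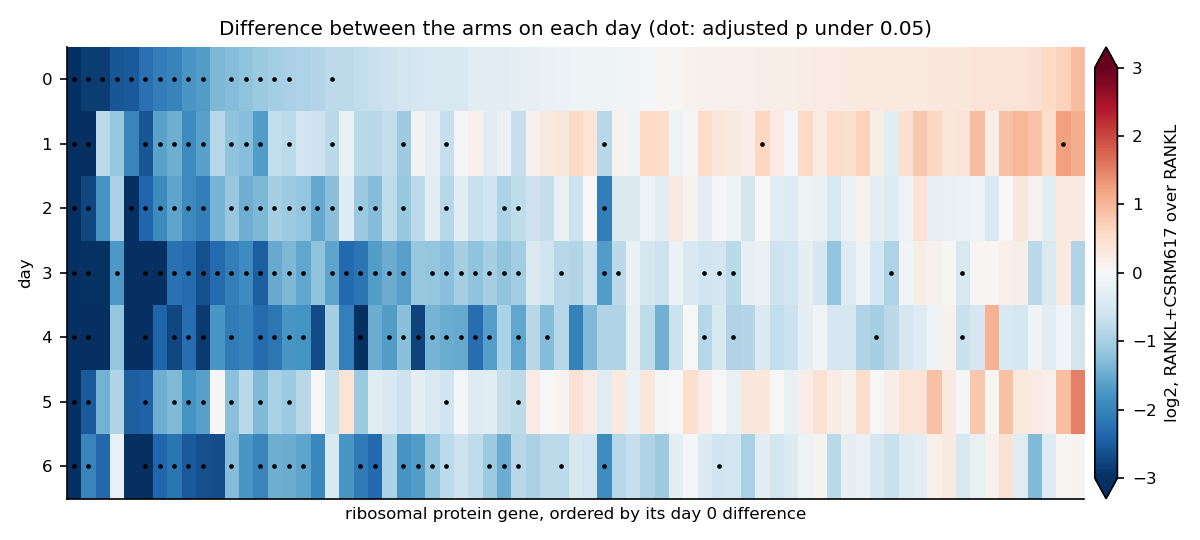
Log2 difference between RANKL+CSRM617 and RANKL on each day (rows) for the 71 members in both tables (columns, ordered by the day 0 difference); blue is lower with CSRM617, red higher, and dots mark an edgeR adjusted p under 0.05. The columns at the left are blue from day 0 on, Rps7 among them (-2.85 on day 0), and 36 of the 71 columns carry a dot on day 3.

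A constant offset between the arms was removed by testing the change from day 0 between arms. The arms also held different cells on day 0, which this contrast does not remove. Of 481 RANKL cells, 260 were in the Enterocyte-like cluster led by Fabp1 and 10 were Stem-like. Of 345 RANKL+CSRM617 cells, 94 were in a cluster led by Fabp1 and 138 in a Stem-like cluster led by Rgcc. What part of the differences below comes from this was not tested. On day 1 no member was called (0.057% of genes were lower and 0.308% higher; 2 members at an unadjusted p under 0.05; DESeq2 called 0), and the median was 0.19. On day 3 the median difference of changes over members was -0.69 (log2), with 70 of 71 below 0, against -0.01 over all genes, and 2 members were called (1.64% of genes were lower and 3.83% higher). These were Rpl13a and Rps9, and neither was called on the scale of the member sum. In the CPM of the joint fit Rpl13a had 218, 183 and 188 on RANKL day 0 and 144, 204 and 178 on day 3, against 263 and 225, then 102 and 83.7 with CSRM617 (difference of changes -1.22, SE 0.297, edgeR adjusted p = 0.00896). Rps9 had 2117, 2339 and 1963, then 2001, 2208 and 2003 with RANKL, and 2728 and 2616, then 1474 and 1483 with CSRM617 (-0.81, SE 0.234, edgeR adjusted p = 0.0321). The CSRM617 plates were the higher ones on day 0 and the lower ones on day 3 in both genes. On day 6 the median was -0.65 and Rps9 was called again (-0.80, SE 0.238, edgeR adjusted p = 0.0217; 4.24% of genes were lower and 7.1% higher). Without the plates of fewer than 50 cells 8 members were called on day 3, adding Rpl17, Rpl12, Rpl27a, Rpl8, Rps4x and Rpl39, and 5 on day 6. In that fit 1.89% and 4.79% of genes were lower on these days. On the other days a difference of changes was called for Rpl12 on day 2 (-1.95; 1.13% of genes were lower and 2.06% higher), for 2 members on day 4, Rps9 among them (-0.99; 0.354% and 0.297%), and for no member on day 5 (1.04% and 1.11%; none at an unadjusted p under 0.05). The day 4 calls were lost without the small plates.

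Genes that work with the members were followed as lists. On RANKL day 1, 5 of 37 ribosome assembly genes (13.5%) rose and none fell, near the 11.5% of all genes that rose. They were Nop58, Tcof1, Dkc1, Gnl3 and Ncl, nucleolar proteins that make and process ribosomal RNA, at 0.71, 0.64, 0.61, 0.54 and 0.50 (log2). The list's median was 0.30, on the day when the median member was at -0.50. Of 23 translation factors and other TOP genes, Hnrnpa1 rose (0.55) and Fau, Eef2, Rack1 and Eif4b fell; Fau, whose product holds the small subunit protein eS30, was at -1.17 and the elongation factor Eef2 at -0.45. Among 19 regulators Ddit4, an inhibitor of mTORC1, rose by 1.47 (SE 0.236, edgeR adjusted p = 1.14e-05), Trp53 rose by 0.96, and Eif4ebp1, a translation repressor that mTORC1 inactivates, fell by 1.36. Of all genes 12.3% fell and 11.5% rose on day 1, so a few calls in lists of 23 and 19 genes are near the background. Ddit4 and Trp53 were higher and Eif4ebp1 lower than day 0 also on days 3, 6 and 9 of RANKL. On those days 10.2% to 19.4% of all genes fell and 10.2% to 18.9% rose.

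On RANKL+CSRM617 day 3, 9 of 22 TOP genes (40.9%) fell and none rose, where 7.94% of all genes fell and 10% rose, with Nap1l1, Eef1d, Hnrnpa1 and Pabpc1 at -1.62, -1.37, -1.31 and -1.06. Of 32 assembly genes 8 (25%) fell, among them Gar1 (-1.39), Tcof1 (-1.38) and Ncl (-0.95), and Eif6, which keeps the subunits apart, rose (0.92). Myc, which drives transcription of ribosome genes, fell by 1.36 on the log2 scale (SE 0.325, edgeR adjusted p = 0.00468), Larp1, the protein that binds TOP mRNAs, fell by 0.86, and Cdkn1a, the p53 target that halts the cell cycle, rose by 2.03 (SE 0.26, edgeR adjusted p = 4.07e-06). On day 6 Cdkn1a and Mycn were higher, and of the TOP genes Nap1l1 and Rack1 were lower. Larp1 was also lower on RANKL day 3, at -0.38. Myc was not called on days 1, 3 or 6 of RANKL and rose on day 9 (0.50, SE 0.156, edgeR adjusted p = 0.0103).

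Over the 30 RANKL plates a member's log2 level followed the median member with a median Pearson r of 0.743, described over 80 members that share libraries, and 64 of 80 had r above 0.5. Rps29 was the most alike at 0.956. Rpl27 ran against the others at -0.479, and Rpl7l1, a nucleolar paralog of Rpl7, was at -0.170. The 5 genes outside the members most like the median member among 9920 were Sema5b (0.825), Fau (0.824), Cfap299 (0.818), Zfas1 (0.807) and Hspa8 (0.806), where the median gene had r = -0.0925. Without the 3 small plates the median over members was 0.670, 51 of 80 were above 0.5, Rpl27 was at -0.588 and Rpl7l1 at 0.0732, and the 5 other genes were at 0.685, 0.777, 0.703, 0.715 and 0.729. Fau encodes a ribosomal protein that the symbol rule does not catch, and Zfas1 is a non-coding RNA that hosts small nucleolar RNAs.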

How the data were processed

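UMI counts per gene and cell were used as deposited; per the submitters' processing notes the tools were kallisto, bustools and Seurat 3.1.5 with GRCm38, with no version given for kallisto or bustools. Cells with 1000 or more UMIs were kept (alternative 2000). The share of UMIs in members was averaged over the cells of a plate and compared by permutation (100000 resamples, or exact). Counts were summed per plate and tested with edgeR 4.0.16 (R 4.3.3; filterByExpr, TMM scaling, quasi-likelihood test, Benjamini-Hochberg over all tested genes, threshold 0.05), with all days of an arm in 1 fit, or days 0 to 6 of both arms over the genes in both tables. In all, 36 contrasts were fitted, and the alternatives were run on 15 of them. The scripts were tested on simulated data with known changes. Of 2-fold changes, 56.7% were called for RANKL day 1 and 21.9% for RANKL+CSRM617 day 3. For the change to day 3 between arms, 7.58% of 2-fold and 45.3% of 4-fold changes were called. A lack of calls therefore does not show a lack of change. DESeq2 1.42.0, other scalings, filters and left-out plates were the alternatives.

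Cells were clustered without the member genes (scanpy 1.11.5; 2000 variable genes, 30 components, 15 neighbours, Leiden resolution 1). A cluster was named from 3 or more markers among its top 50 genes, and classes were compared in plates with 10 or more cells of the class and of the rest. No doublets were removed. Named in full are the 6 members with most UMIs in the RANKL arm, up to 6 called members with the largest rise and fall in each main contrast, members of prior interest (the stalk, Rpsa, Rps27a, Rpl5, Rpl11, Rpl13a, Rpl41, Rps6, Rps4x, Rpl3, paralog pairs) and the 5 genes most like the median member; members named for a single class, day or plate beyond these were chosen after their values were seen. Lists were translation factors and other TOP genes, ribosome assembly genes, regulators of ribosome synthesis and growth, and mitochondrial ribosomal proteins. The members and lists were chosen with earlier results of these data known. Plates of 1 day differed by far more than counting noise in all 37 pairs (chi-square per gene 2.43 to 27.1), so none was treated as a repeat of another. Replicate numbers did not pair plates across days. Some members are not reported here by name.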

Additional observations from a re-analysis of the deposited data

Results flagged for a closer look

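For 2 of 71 members the change to day 3 or 6 differed between arms by a test of the difference itself (edgeR interaction term, Benjamini-Hochberg adjustment). The arms held different cell classes on day 0, which this test does not remove. Of all genes 1.64% were lower and 3.83% higher on day 3, and 4.24% and 7.1% on day 6. Most members shifted the same way, 70 of 71 on day 3 (median -0.69) and 66 on day 6 (median -0.65). Scaled to the member sum, neither gene was called on these days. For Rpl13a the change to day 3 with CSRM617 minus the change with RANKL alone was -1.22 (log2, SE 0.297, edgeR adjusted p = 0.00896). For Rps9 it was -0.81 to day 3 (SE 0.234, edgeR adjusted p = 0.0321) and -0.80 to day 6 (SE 0.238, edgeR adjusted p = 0.0217). Over 19 alternatives, left-out plates among them, Rpl13a was called in 17 (highest edgeR adjusted p = 0.112), Rps9 on day 3 in 10 (highest 0.104) and Rps9 on day 6 in 18 (highest 0.0543). Without plate 2 of RANKL+CSRM617 day 3 no member was called for the change to day 3.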

How the results depend on the processing

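The number of members called moved by more than 1.5 times under these settings; the cause was not tested except where plates were left out. With library totals in place of TMM it was 11 in place of 20 on RANKL day 1, 0 in place of 1 on day 3, 2 in place of 4 on day 9, 25 in place of 41 on RANKL+CSRM617 day 3, 4 in place of 7 on its day 6, 42 in place of 24 between arms on day 6, and 1 and 3 in place of 2 and 1 for the change to days 3 and 6. With no filter on low counts it was 46, 12, 8 and 9 on RANKL days 1, 3, 6 and 9, 26 for day 4 against day 3, 13 on RANKL+CSRM617 day 6 and 4 for the change to day 6. Without the plates of fewer than 50 cells, added after seeing the data, it was 10, 0 and 9 on RANKL days 1, 3 and 9, 0 for day 4 against day 3, and 8 and 5 for the change to days 3 and 6; there Rps19 and Rpl13 turned from higher to -0.0186 and -0.47 (log2) on day 4 against day 3. On RANKL day 3 DESeq2 called 3, cells of 2000 or more UMIs 2 and equal weight per cell 2; for the change to day 6 these gave 2, 2 and 4, and leaving out the most abundant gene model 2. The plate code as a term, also added later, left 1 on RANKL+CSRM617 day 6.

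Leaving out 1 plate at a time gave 5 to 28 members on RANKL day 1 (7 without plate 2 of day 0, 6 and 5 without plates 2 and 3 of day 1), 0 to 6 on day 3, 1 to 5 on day 6, 1 to 7 on day 9 and 0 to 23 for day 4 against day 3. It gave 12 to 27 and 0 to 4 on RANKL+CSRM617 days 3 and 6, and 0 to 0 on day 1. Between arms it gave 8 to 16, 8 to 15, 18 to 35 and 10 to 24 on days 0, 1, 3 and 6, and 0 to 0, 0 to 6 and 0 to 4 for the change to days 1, 3 and 6. A day left with 1 plate was assumed to vary like the others. The test of the RANKL share over days had p = 0.0233 without the small plates and 0.0263 without the most abundant gene model, and a permutation p from 0.00365 to 0.119 with 1 plate left out (below 0.05 without plate 2 or 3 of day 0, plate 2 of day 4 or plate 3 of day 5). The RANKL+CSRM617 test ranged from 0.133 to 0.384, and the difference between arms from -1.81 to -1.58 points. The difference in share from day 0 ranged from -1.68 to -0.657, -0.863 to 0.159, -0.378 to 0.644 and 0.0200 to 1.04 points on RANKL days 1, 3, 6 and 9, and from -1.06 to 0.266, -2.49 to -1.35 and -2.23 to -1.09 on RANKL+CSRM617 days 1, 3 and 6.

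With cells of 2000 or more UMIs the class differences were -2.64 for Enteroendocrine-like cells (adjusted permutation p = 0.292), and -0.989 and 0.357 for Enterocyte-like and Cycling-like cells with CSRM617 (both exact permutation p = 0.109); at resolution 0.5 the Enterocyte-like value was -0.553 (p = 0.375, exact permutation). With the replicate number as a block 19 members were called on RANKL day 1 and 40 on RANKL+CSRM617 day 3, and no count moved by more than 1.5 times; 10 of 30 RANKL plates and 6 of 14 others correlated best with their own number. Of the values of named members under these settings, left-out plates aside, 739 kept direction and call, 69 lost the call and 2 reversed; with 1 plate left out, 288 kept the call and 179 lost it. Low depth limits the 12 members with fewer than 1000 UMIs and all small plates.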

Other observations

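The mitochondrial ribosomal proteins, which serve the ribosome inside mitochondria, were followed as a list in the same fits. Of 71 tested, 6 (8.45%) fell and 1 rose on RANKL day 1, 9 (12.7%) fell and 1 rose on day 3, 28 (39.4%) fell and none rose on day 6, and 35 (49.3%) fell and none rose on day 9, against 12.3%, 10.2%, 19.4% and 18.4% of all genes lower on these days. Their median moved from -0.05 on day 1 to -0.57 on day 9 (log2), while the cytosolic members stood at -0.50 and 0.02. Mrpl51, Mrpl20 and Mrpl54 were the lowest on day 9, at -1.57, -1.29 and -1.23. With CSRM617, 7 of 62 (11.3%) fell on day 3 (median -0.50; 7.94% of all genes fell) and none on days 1 and 6. The difference between these lists was not tested.

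The unnamed RANKL clusters led by Anxa3, F3 and Clu (488 cells) and by Gm1123 and Fosb (181 cells) had member shares of 5.26% and 5.38%, and the Stem-like clusters 4.89% and 5.06%.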
